A study of Mus musculus with 10 samples.

Results

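The 10 genes described here encode the D cyclins (Ccnd1, Ccnd2 and Ccnd3), the E cyclins (Ccne1 and Ccne2), the kinases CDK4 and CDK6, and the CDK inhibitors p21 (Cdkn1a), p27 (Cdkn1b) and p18 (Cdkn2c). They were chosen by name, as genes that control the G1 phase of the cell cycle, and all 10 were found among the 15686 genes of the matrix of stage means and among the 55487 genes of the count tables. The rule itself uses names and no measured value, but the names were proposed with earlier results of these data known.

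RNA from nuclei was sequenced at 5 stages of blood development from the mouse ES line HM-1 in serum culture, with 2 libraries per stage. ES cells were kept in LIF. HB (haemangioblast) cells carried FLK1 and came from embryoid bodies grown for 3 d. They were put into blast culture, from which HE1 (first hemogenic endothelium, KIT+ TIE2+ without CD41), HE2 (second hemogenic endothelium, KIT+ TIE2+ with CD41) and HP (hematopoietic progenitors, KIT+ and CD41+ without TIE2) were sorted. The blast culture medium held VEGF, IL-6 and D4T conditioned medium, which the study does not list for the ES or embryoid body cultures. Growth factors thus differed together with the stage. All stages derive from the same line, no stage was treated with a drug or carried a knockout, and the study describes the 2 replicates of a stage as biologically independent. The labels do not name the cultures, and p-values measure the spread between these libraries.

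Growth signals act on the cell cycle largely through the D cyclins, which bind CDK4 or CDK6 and start the phosphorylation of the RB protein. E cyclins with CDK2 complete this step, E2F factors are released, and genes for DNA synthesis are switched on. p18 belongs to the INK4 inhibitors, which bind CDK4 and CDK6 directly, whereas p21 and p27 bind cyclin and kinase together. Cdkn1a is the classical target of p53. D-type cyclins and CDK6 are needed for the expansion of early blood cells in the mouse.

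Levels are given as CPM, a count scaled to the size of its library, computed over the tested genes with TMM-scaled library sizes, and levels of different genes are compared only as CPM per kb of exon. A gene is said to have risen or fallen when edgeR's quasi-likelihood test gave an adjusted p under 0.05 after Benjamini-Hochberg adjustment over all 22596 tested genes. Libraries held 24920434 to 58782055 counts, where the floor of 3 counts is 0.0510 to 0.120 CPM. Per kb of exon Cdkn2c was the least abundant of the 10 genes in each library, at 0.959 to 4.84 CPM before division by its length.

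The sort markers followed the labels in part. Kdr, which encodes FLK1, stood at 2.43 and 2.70 CPM in ES and at 957 and 1284 CPM in HB, and Tek, which encodes TIE2, was highest in HE1 with 564 and 294 CPM. Itga2b, which encodes CD41, held 227 and 127 CPM in HE1, the population sorted without CD41, against 48.0 and 34.5 CPM in HB and 367 to 505 CPM in HE2 and HP. Kit held 146 and 73.0 CPM in HE1, which was sorted as KIT+, against 73.3 and 69.3 CPM in HB, 164 and 173 CPM in ES and 230 to 410 CPM in HE2 and HP. The 5 ES markers (Pou5f1, Nanog, Sox2, Esrrb and Zfp42) summed to 1998 and 1920 CPM in ES and to 98.8 and 74.5 CPM in HB, but to 6.31 and 66.9 CPM in the HE1 libraries. All 5 of them were higher in the second HE1 library, led by Pou5f1 with 26.3 against 2.82 CPM. The 2 HE2 libraries were unlike each other. The endothelial gene Cdh5 stood at 862 CPM in the first and 412 CPM in the second, and Spi1, which encodes the blood factor PU.1, at 26.4 and 65.9 CPM. Where leaving out an HE1 or HE2 library changed a call of the 10 genes, its value without that library is given beside it. Erythroid markers summed to 258 to 531 CPM in HE1, 1659 to 2163 CPM in HE2 and 2367 to 4651 CPM in HP. Cardiac and smooth muscle markers summed to 635 to 998 CPM in HE1, 402 to 649 CPM in HE2 and 361 to 751 CPM in HP. The 5 macrophage markers had sums between 14.35 and 15.15 CPM in ES and between 6.54 and 8.10 CPM in HB. Their sums were between 8.37 and 16.2 CPM in HE1 and HE2 and between 25.2 and 32.7 CPM in HP. C1qa was at 0 in all libraries and Csf1r at 5.93 and 9.38 CPM in HP. In such bulk samples, fewer cells of a type and less RNA per cell cannot be told apart, and the part of these markers in the results on G1 genes was not tested.

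The 10 genes followed several courses rather than a common one. From ES to HB, 2 of them rose (Ccnd2 and Cdkn1b) and 1 fell (Ccne1), a share of 3 in 10 against 40.4% of all tested genes (17.8% higher and 22.6% lower). From HB to HE1, 3 rose (Ccnd3, Cdkn1a and Cdkn2c) and 4 fell (Ccnd2, Ccne1, Cdk6 and Cdkn1b), which is 7 of 10 against 32.3% of all tested genes (17.5% higher and 14.8% lower). From HE1 to HE2, Ccnd2, Ccnd3 and Cdk6 rose and none fell, against 13.2% of all tested genes in either direction (6.12% higher and 7.12% lower). In HP against HE1, 5 were higher (Ccnd2, Ccnd3, Ccne1, Ccne2 and Cdk6) and 1 was lower (Ccnd1), against 24.9% of all tested genes (11% higher and 13.9% lower). Between HE2 and HP, edgeR's quasi-likelihood test called 0 of the 10 and 0% of all tested genes. limma-voom and DESeq2 called 0 of the 10 as well, with 66 and 468 of all tested genes called. At an unadjusted p under 0.05 in edgeR's test, the same comparison held 1 of the 10 genes, Ccnd1, and 1783 of the 22596 tested genes. Without the first HE2 library more of the 10, and more of all tested genes, passed for HE2 against HE1. Without the second HE2 or the second HE1 library fewer of both passed. For HP against HE2, more of both passed without the second HE2 library. For HP against HE1, fewer of both passed without the first HP library. When a change of at least 2-fold was also required, 3, 4, 0, 0 and 3 of the 10 passed for HB against ES, HE1 against HB, HE2 against HE1, HP against HE2 and HP against HE1, against 28.8%, 20.9%, 8.65%, 0% and 16.5% of all tested genes. The comparisons share libraries of the stages between them and are not independent.

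**Figure D1:**
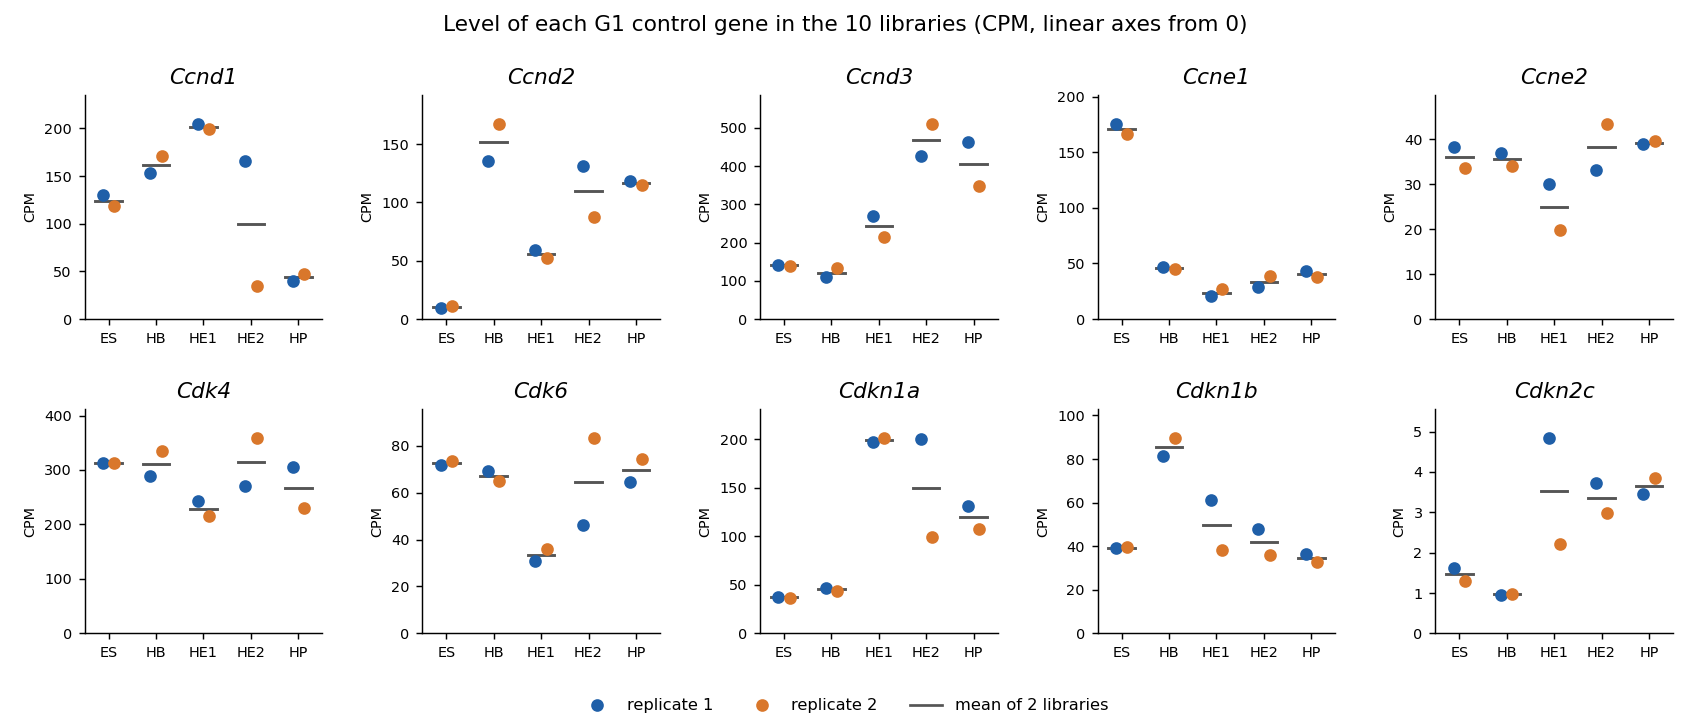
Level of the 10 genes in CPM (vertical, linear axes from 0, a scale for each gene) in the 5 stages (horizontal). Points are single libraries (blue, replicate 1; orange, replicate 2) and lines the mean of 2. Ccne1 is highest in ES. The mean of Cdkn1a is highest in HE1, with overlapping libraries of HE1 and HE2. The HE2 libraries lie far apart for Ccnd1 (166 and 34.5 CPM) and Cdkn1a (200 and 99.7 CPM).

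Ccnd1 encodes cyclin D1, the D cyclin most directly coupled to growth factor signals. The gene lies on the minus strand of chromosome 7 (chr7:144929931-144939925, mm10). Its level was 130 and 119 CPM in ES, 153 and 171 CPM in HB, 205 and 199 CPM in HE1, 166 and 34.5 CPM in HE2, and 39.6 and 47.7 CPM in HP. The first HE2 library lay between the ES and the HE1 libraries, whereas the second lay below both HP libraries. The steps from ES to HB (0.38 ± 0.49 on the log2 scale, adjusted p = 0.578) and from HB to HE1 (0.32 ± 0.49, adjusted p = 0.646) did not pass, although with only the 4 libraries of ES and HB in the fit the former had an adjusted p of 0.00652. In HP against HE1 the gene fell by 2.21 ± 0.51 on the log2 scale (SE, adjusted p = 0.0118), which is 4.63-fold, and no library of the 2 stages overlapped. Without the first HP library the difference was -2.08 (adjusted p = 0.102). The HE2 stage did not resolve when this change took place. With both libraries HE2 differed from HE1 by -1.01 ± 0.50 (adjusted p = 0.169), without its first library by -2.55 (adjusted p = 0.000185), and without its second by -0.28. For HP against HE2, the difference was -1.20 ± 0.50 (adjusted p = 0.558) with both HE2 libraries, -1.93 (adjusted p = 0.00273) without the second and 0.34 without the first.

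Ccnd2 encodes cyclin D2 and lies on the minus strand of chromosome 6 (chr6:127125162-127152193). It had the widest range of the 10 genes, 15.1-fold between the highest and the lowest stage mean. ES libraries held 9.12 and 11.0 CPM and HB libraries 136 and 167 CPM. The rise from ES to HB was 3.92 ± 0.22 on the log2 scale (adjusted p = 1.14e-06). The level then dropped to 59.1 and 52.3 CPM in HE1, below both HB libraries, a fall of 1.44 ± 0.20 (log2, adjusted p = 0.000548). It was 131 and 87.7 CPM in HE2 and 118 and 115 CPM in HP. The rise from HE1 was 0.97 ± 0.20 to HE2 (adjusted p = 0.0168) and 1.06 ± 0.20 to HP (adjusted p = 0.00412), all on the log2 scale. Without the second HE1 library, which held the ES markers, the HE2 difference was 0.89 (adjusted p = 0.0931).

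Ccnd3 encodes cyclin D3, a D cyclin prominent in blood cells, and lies on the plus strand of chromosome 17 (chr17:47505051-47599691). Its level was 142 and 140 CPM in ES, 111 and 133 CPM in HB, 270 and 215 CPM in HE1, 426 and 510 CPM in HE2, and 464 and 349 CPM in HP. All libraries from HE1 onward were above all ES and HB libraries, and those of HE2 and HP overlapped. The rise was 0.99 ± 0.19 on the log2 scale from HB to HE1 (adjusted p = 0.00339) and 0.95 ± 0.19 from HE1 to HE2 (adjusted p = 0.0156). In HP against HE1 the difference was 0.75 ± 0.19 (adjusted p = 0.0174). The step to HE2 was 0.80 (adjusted p = 0.0823) without the second HE1 library and 0.81 (adjusted p = 0.106) without the second HE2 library. The HP difference was 0.59 (adjusted p = 0.0993) without the second HE1 library and 0.53 (adjusted p = 0.147) without the first HP library.

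The make-up of the D cyclin transcripts changed with these courses. Per kb of exon, Ccnd1 made up 59.5% to 61.7% of the summed level of the 3 genes in ES, 52.5% to 54.6% in HB and 54.0% to 58.5% in HE1. In HP its share was 11.4% and 16.3%, and that of Ccnd3 was 71.6% and 64.0%. Per kb of exon, Ccnd1 was thus the most abundant D cyclin transcript in all 6 libraries of ES, HB and HE1, and Ccnd3 in both HP libraries. In CPM not divided by length, Ccnd3 lay above Ccnd1 in ES (means of 141 and 124 CPM) and in HE1 (242 and 202 CPM). The order in these stages therefore rests on the exon lengths used, 4709 bases for Ccnd1 and 8775 for Ccnd3, which cover all annotated exons of a gene. The HE2 libraries held 36.0% and 9.79% Ccnd1 and 49.7% and 77.8% Ccnd3. Ccnd2 contributed 2.16% to 2.75% in ES and 24.2% to 25.7% in HB, its highest share. The sum of the 3 genes varied less than its parts, from 42.3 and 44.8 CPM per kb in ES to 74.8 and 97.7 CPM per kb in HE2.

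**Figure D2:**
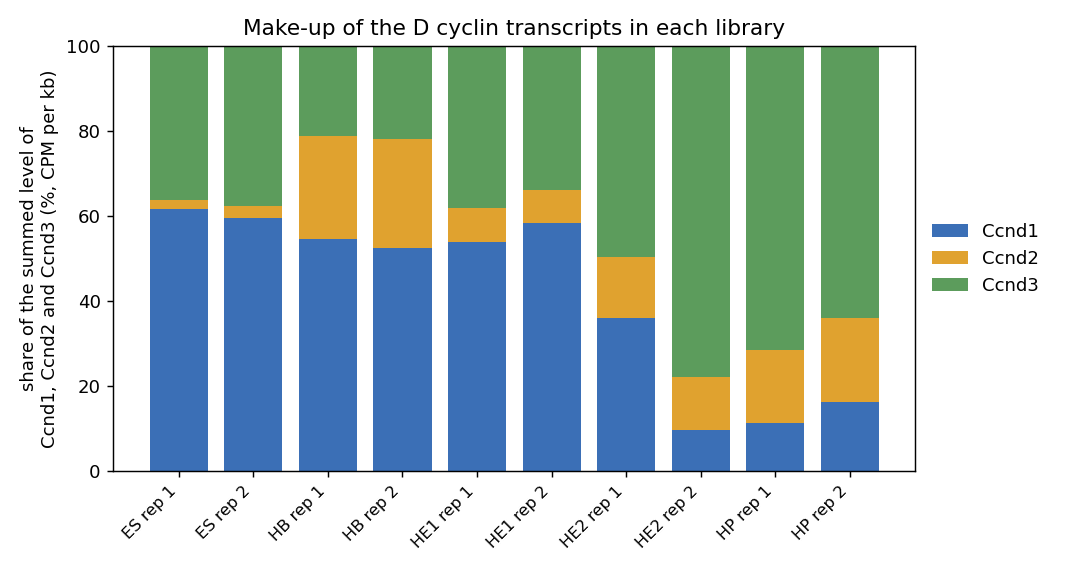
Share of Ccnd1, Ccnd2 and Ccnd3 in the summed D cyclin level (vertical, percent, from CPM per kb of exon) in each of the 10 libraries (horizontal), with 1 stacked bar per library. Ccnd1 takes over 50% in each library of ES, HB and HE1 and under 20% in both HP libraries, and the 2 HE2 libraries differ (36.0% and 9.79%).

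The E cyclins act after the D cyclins, with CDK2 as their kinase. Ccne1 (chr7:38097984-38107534, minus strand) held 175 and 166 CPM in ES, 46.7 and 44.8 CPM in HB, 20.4 and 27.1 CPM in HE1, 28.6 and 38.5 CPM in HE2, and 43.5 and 38.1 CPM in HP. ES cells stood alone, with each ES library more than 3-fold above any other. Ccne1 fell by 1.90 ± 0.19 on the log2 scale from ES to HB (adjusted p = 3.05e-05) and by 0.94 ± 0.19 from HB to HE1 (adjusted p = 0.00380). HP was higher than HE1 by 0.78 ± 0.19 (adjusted p = 0.0128), and by 0.68 (adjusted p = 0.0911) without the first HP library. HE2 differed from HE1 by 0.50 ± 0.18 (adjusted p = 0.0897), and by 0.69 (adjusted p = 0.0309) without the first HE2 library.

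Ccne2, the gene of the second E cyclin (chr4:11191351-11204779, plus strand), showed little of this. It held 38.3 and 33.7 CPM in ES, 37.0 and 34.1 CPM in HB, 30.0 and 19.8 CPM in HE1, 33.2 and 43.5 CPM in HE2, and 39.0 and 39.7 CPM in HP. Only the HE1 libraries lay below those of all other stages. HE1 differed from HB by -0.51 ± 0.21 (log2, adjusted p = 0.0847) and HP from HE1 by 0.66 ± 0.21 (adjusted p = 0.0426). The latter call was lost in 10 of 18 alternative analyses, among them those without the second HE1 library (0.39, adjusted p = 0.236), without either HP library (0.67, adjusted p = 0.139, and 0.65, adjusted p = 0.105), and without any 1 of the ES or HB libraries. Without the first HE1 library HE1 was lower than HB by a difference of -0.84 (adjusted p = 0.0147). HE2 differed from HE1 by 0.62 ± 0.21 (adjusted p = 0.0697), by 0.95 (adjusted p = 0.0161) without the first HE1 library and by 0.80 (adjusted p = 0.0366) without the first HE2 library. As a share of the summed level of both E cyclins per kb, Ccne1 took 85.7% to 86.6% in ES and 47.1% to 64.3% in the 8 libraries of the other stages.

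Of the 2 kinase genes, Cdk4 was the steadier and Cdk6 the more varied. Cdk4 lies on the plus strand of chromosome 10 (chr10:127063534-127067920). Its level was 313 and 312 CPM in ES, 288 and 335 CPM in HB, 242 and 215 CPM in HE1, 270 and 358 CPM in HE2, and 306 and 230 CPM in HP. It passed the test in none of the 5 comparisons, its highest stage mean was 1.37-fold its lowest, and the difference between HB and ES was 0.00 ± 0.19 on the log2 scale, with overlapping libraries. The step from HB to HE1 was -0.45 ± 0.19 (adjusted p = 0.0967). Without a filter on low counts this step had an adjusted p of 0.0493, and the step to HE2 (0.46 ± 0.19, adjusted p = 0.116) had 0.0481. Without the first HE2 library the step to HE2 was 0.65 (adjusted p = 0.0478).

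Cdk6 lies on the plus strand of chromosome 5 (chr5:3341485-3531008). It held 71.8 and 73.5 CPM in ES, 69.4 and 64.9 CPM in HB, 30.9 and 36.0 CPM in HE1, 46.0 and 83.2 CPM in HE2, and 64.6 and 74.5 CPM in HP. The HE1 libraries were below all others. The fall from HB to HE1 was by 1.00 ± 0.24 on the log2 scale (adjusted p = 0.00936), and HP was higher than HE1 by 1.05 ± 0.24 (adjusted p = 0.00961). The rise from HE1 to HE2 was 0.95 ± 0.24 (adjusted p = 0.0310), but it did not pass in 8 of 18 alternative analyses. Without the second HE2 library the HE2 difference was 0.46 (adjusted p = 0.225), without the first or second HE1 library 0.84 and 1.07 (adjusted p = 0.0674 and 0.0969), and without the first or second HB library 0.97 and 0.95 (adjusted p = 0.0521 and 0.0540). Per kb of exon, Cdk4 made up 93.0% to 97.1% of the summed level of both kinases in every library, so that the change in Cdk6 touched a small share of the transcripts.

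Of the 3 inhibitor genes among the 10, Cdkn1a had the largest change after the HB stage. The gene (chr17:29090976-29100727, plus strand) held 37.8 and 36.9 CPM in ES and 46.8 and 44.1 CPM in HB. In HE1 it reached 197 and 201 CPM, in HE2 200 and 99.7 CPM, and in HP 131 and 108 CPM. Every library from HE1 onward was above every earlier one. HB differed from ES by 0.28 ± 0.26 on the log2 scale (adjusted p = 0.418, and 0.0139 with only these 4 libraries in the fit). The rise from HB to HE1 was 2.13 ± 0.27 on the log2 scale (adjusted p = 0.000287), which is 4.38-fold. The first HE2 library was at the HE1 level and the second just below HP. HE2 differed from HE1 by -0.41 ± 0.26 (adjusted p = 0.263) with both libraries, by -0.997 (adjusted p = 0.00443) without the first, and by 0.0046 without the second. HP differed from HE2 by -0.33 ± 0.26 (adjusted p = 0.951), and by -0.74 (adjusted p = 0.0407) without the second HE2 library. HP differed from HE1 by -0.74 ± 0.26 (adjusted p = 0.0592). This difference passed in 7 of 18 alternative analyses, among them DESeq2 (adjusted p = 0.0251) and those without the first or the second HE2 library (adjusted p = 0.00339 and 0.00343), where the difference itself stayed at -0.74.

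RefSeq promoter windows (GRCm38.p6, 250 bases before to 50 after a start site) were at hand for 7 of the 10 genes, with 10 windows in all. They were searched on both strands for the E2F cores TTGGCGC and TTCCCGC, the AP-1 site TGANTCA, the E-box CACGTG and the GATA site AGATAA. The upstream window of Cdkn1a (chr17:29090729-29091028, plus strand) held none of these. It held ACATGTNNNNACATGT, a pair of words that carry the CATG core of p53 half-sites, beginning 49 bases before the start site of this window. The second Cdkn1a window, at a start site further downstream (chr17:29093519-29093818), did not hold it. This pattern was added to the search after the upstream window had been read, so its presence there was fixed in advance. It occurs in 4 of 32851 windows, which is a description and not a test. The upstream window is shown because Cdkn1a had the largest rise into HE1 of the 10 genes, with the pattern in capitals.
Cdkn1a: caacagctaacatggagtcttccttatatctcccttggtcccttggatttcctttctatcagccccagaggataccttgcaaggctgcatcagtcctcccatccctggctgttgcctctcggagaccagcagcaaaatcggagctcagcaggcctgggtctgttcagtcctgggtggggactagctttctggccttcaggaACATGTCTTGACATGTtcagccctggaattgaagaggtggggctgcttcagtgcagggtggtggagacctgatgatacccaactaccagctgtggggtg
The Cdk4 window (chr10:127063285-127063584, plus strand) is shown as that of the steadiest gene. It held 4 E-boxes (capitals), the first bases of which lie 172, 118, 98 and 11 bases before the start site, whereas 7.15% of all windows hold at least 1.
Cdk4: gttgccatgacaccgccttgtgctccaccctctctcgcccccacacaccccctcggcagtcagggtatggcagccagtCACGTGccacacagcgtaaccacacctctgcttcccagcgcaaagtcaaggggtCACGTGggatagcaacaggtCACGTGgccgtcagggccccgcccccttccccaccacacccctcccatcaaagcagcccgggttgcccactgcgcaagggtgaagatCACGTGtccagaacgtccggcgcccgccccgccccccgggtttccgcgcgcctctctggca
A window of Cdkn2c (chr4:109666707-109667006, minus strand) is shown as the only one of the 10 with an E2F core (capitals, 25 bases before the start site), where 6.81% of all windows hold either E2F core.
Cdkn2c: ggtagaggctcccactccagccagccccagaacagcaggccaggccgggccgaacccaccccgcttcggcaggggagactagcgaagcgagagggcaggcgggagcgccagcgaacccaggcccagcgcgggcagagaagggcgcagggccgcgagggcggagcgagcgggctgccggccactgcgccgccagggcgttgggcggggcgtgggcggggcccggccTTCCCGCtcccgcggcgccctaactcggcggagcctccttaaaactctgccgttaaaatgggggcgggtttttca
The other E-boxes of the set were 1 in the Cdk6 window and 1 in the second Cdkn2c window. The windows of Ccnd3, Ccne1 and Cdkn1b and the second Cdkn1a window held none of these letters, and no binding was measured here.

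Cdkn1b (chr6:134920401-134925513, plus strand), the gene of p27, was highest in HB. It held 39.1 and 39.5 CPM in ES, 81.6 and 89.6 CPM in HB, 61.1 and 38.1 CPM in HE1, 47.7 and 35.9 CPM in HE2, and 36.6 and 32.5 CPM in HP. Both HB libraries were above all others. Cdkn1b rose by 1.12 ± 0.22 on the log2 scale from ES to HB (adjusted p = 0.00228) and fell by 0.79 ± 0.22 from HB to HE1 (adjusted p = 0.0200). The HE1 libraries were 1 above the range of ES, HE2 and HP and 1 within it, the latter being the library with the ES markers. Without it the difference between HE1 and HB was -0.49 (adjusted p = 0.0993) and that between HP and HE1 was -0.82 (adjusted p = 0.0194), against -0.52 ± 0.22 (adjusted p = 0.107) with both. Without the second HB library the fall into HE1 did not pass either (-0.72, adjusted p = 0.115).

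Cdkn2c (chr4:109660876-109667189, minus strand), the gene of p18, held 1.63 and 1.29 CPM in ES, 0.959 and 0.986 CPM in HB, 4.84 and 2.21 CPM in HE1, 3.72 and 2.98 CPM in HE2, and 3.44 and 3.85 CPM in HP. All libraries from HE1 onward were above all earlier ones, but the HE1 libraries lay on either side of all HE2 and HP libraries. The rise from HB to HE1 was 1.85 ± 0.43 on the log2 scale (adjusted p = 0.00943). It was 1.18 (adjusted p = 0.0420) without the first HE1 library and 2.31 without the second. Without the first or the second HB library it was 1.77 and 1.87 and did not pass (adjusted p = 0.0596 and 0.0667).

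Per kb of exon, Cdkn1a made up 53.1% to 53.6% of the summed level of the 3 inhibitors in ES, 38.2% to 41.9% in HB, where Cdkn1b was ahead, and 75.7% to 86.0% in the 6 libraries of HE1, HE2 and HP. The sum was 19.5 and 19.8 CPM per kb in ES, 31.5 and 32.5 CPM per kb in HB, and 65.8 and 70.7 CPM per kb in HE1. HE1 was thus the stage in which the summed E cyclins were lowest (15.9 and 16.2 CPM per kb) and the summed inhibitors were high. The HE2 libraries held 68.1 and 37.1 CPM per kb of inhibitors, and HP 46.2 and 38.9 CPM per kb.

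**Figure D3:**
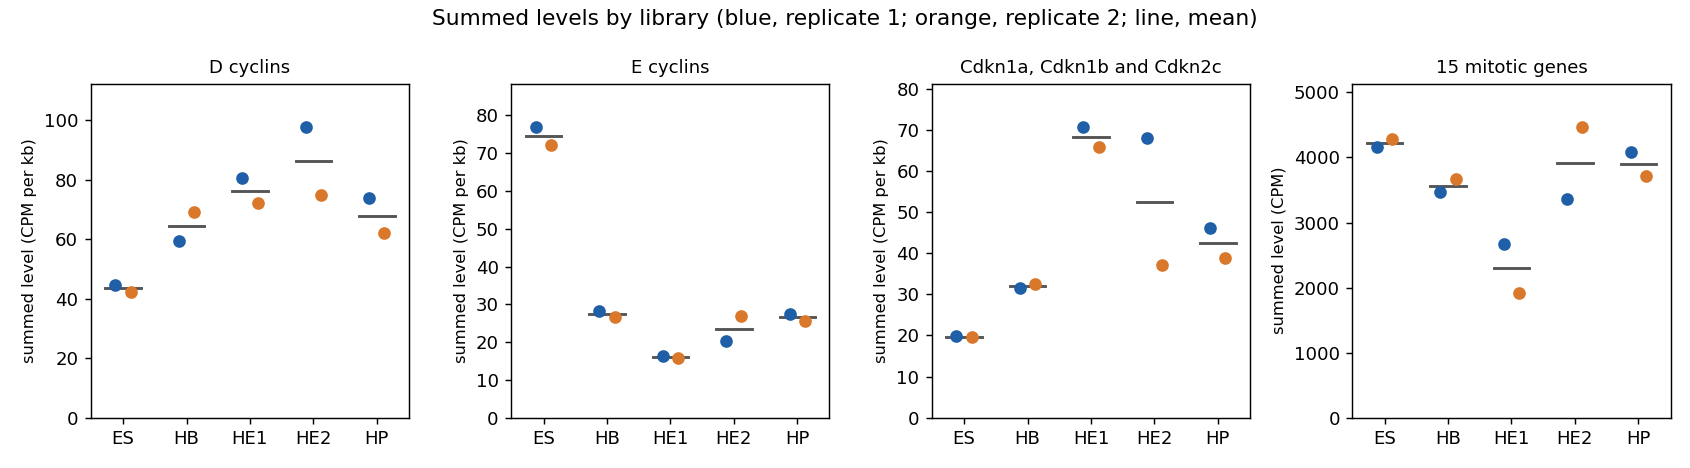
Summed levels by stage (horizontal) of the D cyclins, the E cyclins and the 3 CDK inhibitors (CPM per kb of exon) and of 15 mitotic genes (CPM), vertical axes linear from 0. Points are libraries (blue, replicate 1; orange, replicate 2) and lines the mean of 2. In HE1 the E cyclins and the mitotic genes are at their lowest, the latter at 2677 and 1916 CPM.

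Other genes of the pathway were read from lists. In the 35 other G1/S genes, 4 rose and 8 fell from ES to HB, where 40.4% of all tested genes were called (median log2 difference -0.18, against 0.00 over all tested genes). From HB to HE1, 5 rose and 8 fell, where 32.3% of all tested genes were called (median -0.23 against 0.04). In both steps the called share of the list lay near that of all genes. From HE1 to HE2, 7 rose and 1 fell, where 6.12% of all tested genes rose and 7.12% fell (median 0.30 against -0.08). In HP against HE1 12 were higher and 2 lower, where 11% of all tested genes were higher and 13.9% lower (median 0.22 against -0.02). Without the second HE1 library fewer of the 35, and fewer of all tested genes, passed for HE2 against HE1. Without the first HP library fewer of both passed for HP against HE1. Between HE2 and HP 0 of the 35 passed edgeR's quasi-likelihood test. At an unadjusted p under 0.05 it held 3 of the 35, where it held 1783 of the 22596 tested genes. In DESeq2 1 of the 35 passed, where 468 of all tested genes did. Of the 13 genes of the RB and E2F list, 2 rose and 3 fell from ES to HB, 2 rose and 4 fell from HB to HE1, 3 rose from HE1 to HE2, and 5 were higher in HP than in HE1. E2f2, an activating E2F, fell from ES to HB by 1.59 ± 0.21 (log2, adjusted p = 0.000176), rose into HE1 by 0.82 ± 0.21 (adjusted p = 0.0128, but 0.0650 without the first HE1 library and 0.0504 and 0.102 without the first or second HB library) and was higher in HP than in HE1 by 2.11 ± 0.21 (adjusted p = 0.000167). E2f5, counted among the repressing E2F genes, rose into HB by 0.92 ± 0.17 (adjusted p = 0.00150) and fell into HE1 by 1.18 ± 0.17 (adjusted p = 0.000655). Rbl1, which encodes the RB relative p107, was higher in HP than in HE1 by 1.06 ± 0.21 (adjusted p = 0.00506).

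The 4 further CDK inhibitor genes followed their own courses. Cdkn2a, which encodes p16 and ARF, had stage means of 11.6 CPM in ES and 1.79 CPM in HB and fell (log2 difference -2.69 ± 0.37, adjusted p = 0.000244). It rose again into HE1, to a mean of 6.44 CPM (1.84 ± 0.36, adjusted p = 0.00385, a value given after it was seen, as is the fall of Cdkn2b). Cdkn2b, the gene of p15, fell from ES to HB by 1.97 ± 0.47 (adjusted p = 0.00664) and rose into HE1, with means of 0.794 and 9.04 CPM (3.51 ± 0.48, adjusted p = 0.000480). Cdkn1c, the gene of p57, rose into HB by 0.90 ± 0.28 (adjusted p = 0.0253, but 0.0638 to 0.108 without any 1 of the ES or HB libraries), fell from HE1 to HE2 by 1.69 ± 0.29 (adjusted p = 0.00810) and was lower in HP than in HE1 by a log2 difference of -1.84 ± 0.29 (adjusted p = 0.00160). Cdkn2d, the gene of the INK4 protein p19, was higher than in HE1 both in HE2 (1.27 ± 0.33, adjusted p = 0.0362) and in HP (1.20 ± 0.33, adjusted p = 0.0255). Without the second HE1 library the adjusted p was 0.193 and 0.161 for these Cdkn2d differences and 0.0504 for Cdkn1c in HE2 against HE1, and without the second HE2 library 0.267 for Cdkn2d and 0.0543 for Cdkn1c in HE2 against HE1. For Cdkn2d the adjusted p was also 0.225 in HP without the first HP library, and 0.0507 to 0.0516 in HE2 without the first or second ES or the second HB library. Among 18 other regulators of the G1/S step, Ccna2, the gene of cyclin A2, fell into HE1 by 0.86 ± 0.20 (adjusted p = 0.00923), rose from HE1 to HE2 by 0.90 ± 0.20 (adjusted p = 0.0222) and was higher in HP than in HE1 by 0.90 ± 0.20 (adjusted p = 0.00978). Without the second HE1 library these 3 Ccna2 differences were -0.65, 0.69 and 0.68 (adjusted p = 0.0541, 0.117 and 0.0637), and without the second HE2 library the HE2 difference was 0.64 (adjusted p = 0.176). Its HE1 and HP differences did not pass without the second HB library (adjusted p = 0.0668) and without the first HP library (adjusted p = 0.0812), respectively. Cables1, which encodes a CDK-binding protein, rose into HB by 1.16 ± 0.19 (adjusted p = 0.000877) and was lower in HP than in HE1 (-1.20 ± 0.19, adjusted p = 0.00185).

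Of 16 genes of the p53 pathway, 2 rose and 9 fell from ES to HB, and 9 rose and 1 fell from HB to HE1, the step at which Cdkn1a rose. Their summed level was 2202 and 2210 CPM in ES, 1406 and 1416 CPM in HB, and 2616 and 2297 CPM in HE1. The ES sums thus lay between those of HB and HE1, and Cdkn1a was lowest in ES. Whether p53 had a part in the rise of Cdkn1a was not tested. Of all tested genes, 17.8% rose and 22.6% fell in the first step and 17.5% rose and 14.8% fell in the second. The median log2 difference of the list was -0.70 from ES to HB and 0.63 from HB to HE1, against 0.00 and 0.04 over all tested genes. Plk2 rose into HE1 by 2.20 ± 0.33 (adjusted p = 0.000875) and Phlda3, an inhibitor of AKT signalling, by 2.10 ± 0.24 (adjusted p = 0.000181). Sesn1, which encodes a sestrin, fell at that step by 0.84 ± 0.24 (adjusted p = 0.0216, but 0.109 without the second HE1 and 0.151 without the second HB library). Without the first or the second HE1 library, the median of the list from HB to HE1 was 0.70 and 0.66. In HP against HE1, 3 of the 16 were lower, among them Plk2 (-1.66 ± 0.33, adjusted p = 0.00506) and Phlda3 (-0.77 ± 0.23, adjusted p = 0.0350), and 1 was higher, where 13.9% of all tested genes were lower and 11% higher. Phlda3 did not pass there in 8 of the 10 analyses without 1 library (adjusted p = 0.0519 to 0.141), all but those without an HE2 library, and Plk2 did not pass without the first HP library (adjusted p = 0.0591). From HE1 to HE2 1 of the 16 rose and 0 fell, where 6.12% of all tested genes rose and 7.12% fell. Without the first HE2 library the median of the list was -0.39, against -0.26 with both. More genes then passed, over all tested genes and in the list, where the added calls were falls. From HE2 to HP edgeR's quasi-likelihood test called 0 of the 16 and 0% of all tested genes. At an unadjusted p under 0.05 it held 0 of the 16, where it held 1783 of the 22596 tested genes. The median of the list was 0.05, and -0.13 without the second HE2 library.

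Of 15 mitotic genes, 1 rose and 2 fell from ES to HB, where 17.8% of all tested genes rose and 22.6% fell. From HB to HE1 0 rose and 8 fell (median -0.68 against 0.04 over all tested genes, of which 17.5% rose and 14.8% fell). Those that fell were led by Bub1, a gene of the spindle checkpoint (-1.46 ± 0.18, adjusted p = 0.000269), and Cenpf, which encodes a kinetochore protein (-1.09 ± 0.19, adjusted p = 0.00209). From HE1 to HE2 12 of the 15 rose and 0 fell (median 0.71 against -0.08 over all tested genes, of which 6.12% rose). In HP against HE1 11 were higher and 0 lower (median 0.67 against -0.02 over all tested genes, of which 11% were higher). These counts moved when single libraries were left out, also those of ES or HB in the comparison of HE2 with HE1, where fewer then rose. The median of that comparison stayed between 0.51 and 0.91. Without the second HE1 library the medians were -0.42 from HB to HE1, 0.54 from HE1 to HE2 and 0.51 in HP against HE1, and fewer genes passed. Without the first HE1 library they were -0.81, 0.91 and 0.83, and more passed. Without the second HE2 library the HE2 median was 0.51, and without the first HP library the HP median was 0.58, with fewer passing. Counts over all tested genes moved in the same directions. Mki67, the gene of the Ki-67 antigen, was higher than in HE1 by 0.97 ± 0.25 in HE2 (adjusted p = 0.0359) and by 1.10 ± 0.26 in HP (adjusted p = 0.0117). Its HE2 difference was 0.63 (adjusted p = 0.140) without the second HE1 library and 0.70 (adjusted p = 0.266) without the second HE2 library. Leaving out any 1 of the ES or HB libraries gave an adjusted p of 0.0520 to 0.0613 in HE2, and leaving out the first HP library 0.0575 in HP. The summed level of the 15 genes was 4164 and 4278 CPM in ES, 3466 and 3670 CPM in HB, 2677 and 1916 CPM in HE1, 3362 and 4466 CPM in HE2, and 4078 and 3719 CPM in HP. The HE1 libraries were thus below all others, as they were for Cdk6, Ccne1 and Ccne2. From HE2 to HP 0 of the 15 passed edgeR's quasi-likelihood test, also at an unadjusted p under 0.05, where it held 1783 of the 22596 tested genes. All comparisons with HE1 use the same 2 libraries, which also differed in the endothelial markers (2983 and 1734 CPM), and the part of the cell mixture in these differences was not tested.

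**Figure D4:**
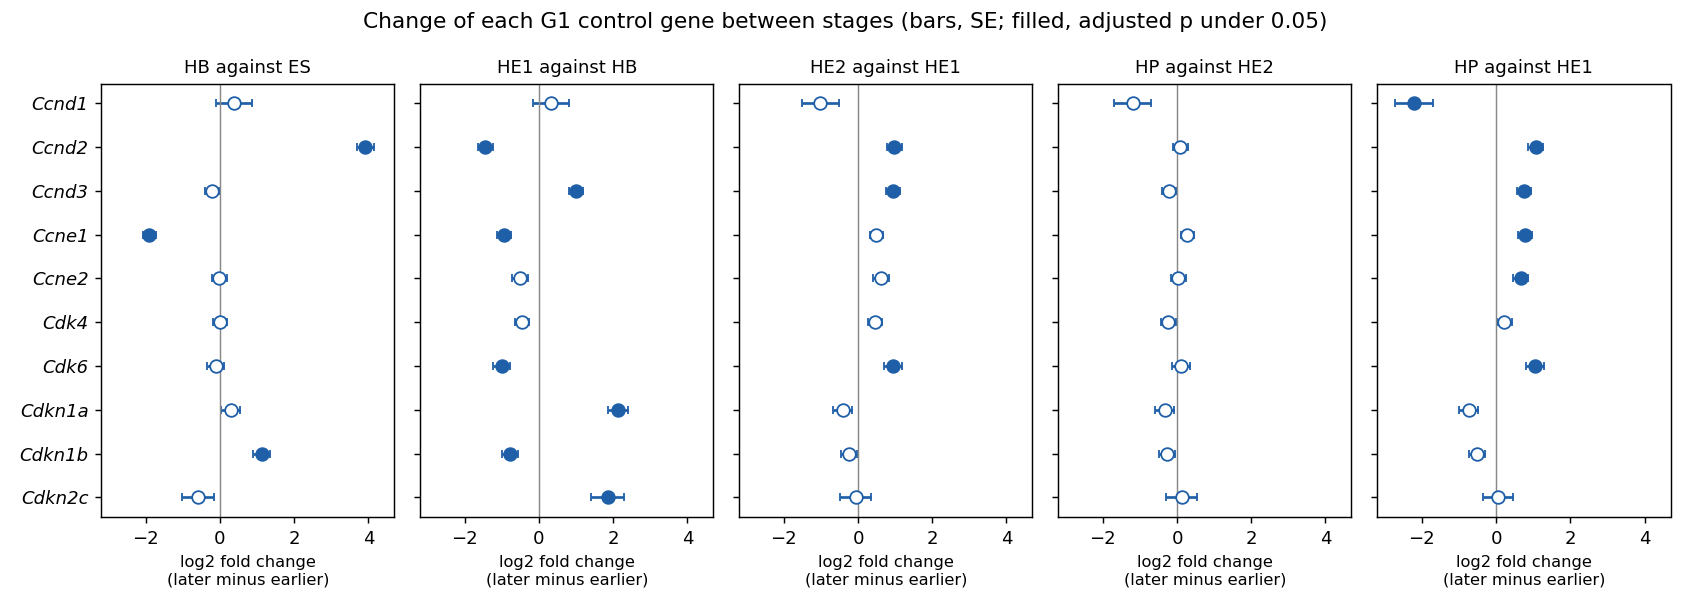
Log2 fold change (horizontal, later minus earlier stage) of each of the 10 genes (vertical) in the 5 comparisons, 1 panel each. Points are the edgeR estimates, bars the SE, and filled points have an adjusted p under 0.05. Filled points number 3, 7, 3, 0 and 6 from left to right, and the bars of Ccnd1 are the widest together with those of Cdkn2c.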

How the data were processed

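Nuclear RNA was sequenced from 2 libraries at each of 5 stages. The authors removed rRNA reads (RiboDetector), trimmed reads (Trimmomatic), aligned them to mm10 (HISAT2 v2.2.1) and counted fragments per gene with featureCounts (v2.0.1) on Ensembl release 102 exons. The deposited counts are raw, reverse-stranded, with a fragment counted on each gene it overlaps. The deposited matrix holds 1 expression score per gene and stage, a mean made by the authors from normalized values. It was used only to list genes. As the counting was by strand and no gene shares exon bases on the same strand with the 10 genes, no gene was set aside for overlap.

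Genes were filtered with filterByExpr, which left 22596 of 55487, and scaled with TMM. edgeR (v4.0.16, R v4.3.3) fitted its quasi-likelihood model to all 10 libraries, by stage alone (5 residual degrees of freedom), with Benjamini-Hochberg adjustment over all tested genes and a threshold of 0.05. CPM are on these scaled library sizes and log2 CPM used a prior count of 2. Depth was 24920434 to 58782055 counts per library, and the floor of 3 counts covers counting error only.

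The 10 genes and the lists were chosen with earlier results of these data known. All 10 genes are named. In each list and comparison, the genes that could be named were up to 2 per direction that passed, with the largest change among genes of at least 9 CPM in 1 of the stages. Alternatives were limma-voom (v3.58.1), DESeq2 (v1.42.0), library sizes from total counts, no filter, only the 4 libraries compared, a replicate block, a change of at least 2-fold, only genes of the matrix, and leaving out each library, where the lone library of a stage is assumed to vary like the other stages. Leaving out libraries for the p53, mitotic and other named genes was added after seeing the data. The fits were tested on simulated data. Promoter windows came from RefSeq (GRCm38.p6), and motifs were matched exactly.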

Additional observations from a re-analysis of the deposited data

How the results depend on the processing

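Limits lie in 2 libraries per stage, which leave 5 residual degrees of freedom, and in the unlike HE2 libraries. Of 900 comparisons of a member's value with an alternative, 815 kept direction and side of the threshold. Numbers below are counts of genes passing, first as reported, and the causes of the moves were not tested unless fewer libraries, fewer genes or a fold criterion enter by construction.

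For the 10 G1 genes, HB against ES gave 3, and 5 with only the 4 libraries compared. HE1 against HB gave 7, and 4 with a change of at least 2-fold. HE2 against HE1 gave 3, but 6 with no filter on low counts and 0 with at least 2-fold. HP against HE2 gave 0, and 1 with no filter. HP against HE1 gave 6, and 3 with at least 2-fold.

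For the 35 other G1/S genes, HB against ES gave 12, but 22 with only the 4 libraries and 7 with at least 2-fold. HE1 against HB gave 13, and 4 with at least 2-fold. HE2 against HE1 gave 8, and 4 with the 4 libraries and with at least 2-fold. HP against HE2 gave 0, and 1 in DESeq2. HP against HE1 gave 14, and 5 with at least 2-fold.

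For all tested genes, HB against ES gave 9122, and 6507 with at least 2-fold. The count with only the 4 libraries is not given here, so the 5 and 22 genes above cannot be set against a share of all genes. HE1 against HB gave 7300, and 4722 with at least 2-fold. HE2 against HE1 gave 2992, but 4708 in DESeq2, 6061 with no filter, 1079 with the 4 libraries and 1954 with at least 2-fold. HP against HE2 gave 0, but 66 in limma-voom, 468 in DESeq2, 846 with no filter and 54 with the 4 libraries. HP against HE1 gave 5637, and 3735 with at least 2-fold.

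Leaving out each library in turn, the 10 G1 genes gave 3 throughout for HB against ES, 5 to 8 for HE1 against HB, 0 (without the second HE1 library) to 8 (without the first HE2 library) for HE2 against HE1, 0 to 2 (without the second HE2 library) for HP against HE2, and 2 (without the first HP library) to 7 for HP against HE1. The 35 genes gave 8 (without the second HB library) to 14, 6 (without the second HB library) to 17, 1 (without the second HE1 library) to 12, 0 throughout, and 5 (without the first HP library) to 14 in the same order. In an alternative chosen after seeing the data, the 16 p53 genes gave 7 (without the second HB library) to 12, 6 (without the second HB library) to 11, 0 to 8 (without the first HE2 library), 0 to 1 (without the second HE2 library), and 0 (without the first HP library) to 6, and the 15 mitotic genes 1 to 5, 4 to 10, 0 to 15, 0 throughout, and 0 to 14. All genes gave 5841 (without the first ES library) to 10171, 3370 (without the second HB library) to 7769, 502 (without the second HE2 library) to 5596 (without the first HE1 library), 0 to 640 (without the second HE2 library), and 2260 (without the first HP library) to 7239.

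The replicate numbers were shared between stages, and the difference between libraries 1 and 2 correlated from -0.32 to 0.21 between pairs of stages. These values cannot tell whether libraries of the same number came from the same culture, which the labels do not name. With the replicate block, the 10 genes gave 3, 7, 3, 0 and 6, HE2 against HE1 gave 4 of the 35 genes and 1899 of all genes, and Ccne2 (adjusted p = 0.0571) and Cdkn1a (0.0454) in HP against HE1 changed sides.

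Directions turned only for values that had not passed the test. For HB against ES, Cdk4 (0.00) became 0.073 with total counts, 0.015 with no filter, 0.016 with the 4 libraries and 0.029 with only genes of the matrix, and lay between -0.12 and 0.12 on leaving out libraries. Ccne2 (-0.02) became 0.064 with total counts and 0.017 with only genes of the matrix, and lay between -0.091 and 0.089. For HE2 against HE1, Cdkn2c (-0.07) became 0.070 in limma-voom. On leaving out libraries, Cdkn2c lay between -0.53 and 0.60, Cdkn1b between -0.55 and 0.13 and Cdkn1a between -0.997 and 0.0046. For HP against HE2 the ranges were -1.93 to 0.34 for Ccnd1, -0.17 to 0.41 for Ccnd2, -0.14 to 0.24 for Ccne2, -0.26 to 0.60 for Cdk6, -0.74 to 0.26 for Cdkn1a and -0.029 to 0.29 for Cdkn2c. For HP against HE1, Cdkn2c lay between -0.41 and 0.72.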

Other observations

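The genes whose log2 CPM over the 10 libraries were most like those of each G1 gene were searched among 12235 genes of at least 9 CPM in 1 stage. Pearson's r is given as a description across 10 libraries that share 5 stages, with no test. For Ccnd1 these were Unc5b (0.966), Camsap2 (0.961) and Mmp15 (0.957). For Ccnd2 they were Lzts1 (0.995), Rbm24 (0.993) and Parp11 (0.986), and for Ccnd3 they were 4931406C07Rik (0.993), Gle1 (0.992) and Ugcg (0.991). Ccne1 was nearest to Txlng (0.989), Carnmt1 (0.989) and Urb2 (0.988), and Ccne2 to Sf3b3 (0.976), Dzip3 (0.976) and Cbx5 (0.964). Cdk4 was nearest to Rpl7l1 (0.975), Cks1b (0.971), which encodes a small CDK-binding protein, and Gm8210 (0.969). Cdk6 was nearest to Dnmt3b (0.968), the gene of a DNA methyltransferase, Tlcd1 (0.968) and Gen1 (0.962). Cdkn1a was nearest to Tspan9 (0.993), Gsto1 (0.992) and Ubtd1 (0.989), Cdkn1b to Flrt3 (0.991), Chst7 (0.976) and Zscan26 (0.966), and Cdkn2c to Atp6v1h (0.980), Gpr137 (0.980) and Slc35d2 (0.968).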
